A study of Mus musculus with 6 samples.

Results

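The subject is the RNA of the vacuolar proton pump (V-ATPase) and of the autophagy machinery in sorted mouse breast cancer cells. Members were all probe sets whose single gene symbol in the platform annotation begins with Atp6v or Atp6ap and a digit, with Atg and a number or with Gabarap, or is Ulk1, Ulk2, Map1lc3a, Map1lc3b, Becn1, Sqstm1, Wipi1 or Wipi2. The rule uses gene symbols and no measured value, though it was proposed with earlier results of these data known. The rule found 118 of 45101 probe sets, 47 of the V-ATPase and 71 of autophagy. They read 51 of 18193 genes, 22 of the V-ATPase and 29 of autophagy. The 6 Affymetrix Mouse430_2 arrays held cells sorted as CD24+CD29+, 3 arrays, and as CD24-CD29-, 3 arrays. CD24 is a glycosylated surface protein and CD29 the beta-1 chain of integrins, and the labels describe the cells of both groups as breast cancer stem cells. Both groups were grown in serum-containing medium and sorted, and neither received any treatment named in the labels. No strain, tumour of origin, animal age or line name is given in the labels used here. Although the design text speaks of independent biological sample sets, nothing says that they were separate cultures or sorts, and the p-values cover the spread between these arrays, which may be partly technical.

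The deposited values were log2 expression values, and their number of arrays limits the precision. Over genes, which are not independent replicates, Pearson's r was 0.998 to 0.999 within a group and 0.974 to 0.978 across groups. The lower quartile of an array lay at 5.20 to 5.41 and its highest value at 14.9 to 15.0, and differences near either end can be compressed. Of 10 epithelial markers, 4 rose, 4 fell and 2 did not pass, and their mean was 12.14 to 12.20 on CD24+CD29+ arrays and 12.06 to 12.07 on CD24-CD29- arrays. Epcam, an epithelial adhesion gene, averaged 14.11 ± 0.02 in CD24+CD29+ cells and 14.13 ± 0.02 in CD24-CD29- cells (SD, n = 3 each). Markers of basal mammary cells were higher in CD24+CD29+ cells, Krt14 by 1.99-fold, Trp63 by 1.74-fold and Krt5 by 1.57-fold, and the luminal keratins were lower, Krt19 by 1.93-fold, Krt18 by 1.34-fold and Krt8 by 1.13-fold. The part of this shift in the members' differences was not tested. Of the genes used for the sort, Itgb1 averaged 10.94 ± 0.05 in CD24+CD29+ cells and 10.06 ± 0.03 in CD24-CD29- cells, and Cd24a 12.99 ± 0.02 in CD24+CD29+ cells and 12.79 ± 0.03 in CD24-CD29- cells (SD, n = 3 each), so that RNA of both was high in the negative sort too. For the beta-actin control probe sets, the 3' value exceeded the 5' value by 3.32 to 3.37 on CD24+CD29+ arrays and by 4.35 to 4.42 on CD24-CD29- arrays. For Gapdh the excess was 5.81 to 5.89 and 5.85 to 6.04. This sign of RNA or labelling quality moved with the groups for actin, and its part in the results below was not tested.

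The V-ATPase pumps protons into lysosomes and other organelles at the cost of ATP. Its V1 sector hydrolyses ATP in the cytosol and turns a rotor, and its V0 sector sits in the membrane and carries the protons. Autophagy wraps cytoplasm in a newly built membrane sac, the autophagosome, and delivers it to lysosomes, where the acid made by the pump is needed to degrade it. The ULK kinase complex starts the process, a phosphatidylinositol 3-kinase complex marks the membrane, lipid transfer and scrambling proteins expand it, and conjugation enzymes attach proteins of the Atg8 family (LC3 and GABARAP) to it. The kinase mTORC1, which the series' title brings in through mTOR signalling, restrains the ULK complex when nutrients are plentiful.

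Most V-ATPase genes that differed were lower in CD24+CD29+ cells, whereas more autophagy genes were higher than lower there on the deposited scale. Of the 22 V-ATPase genes, 4 rose, 12 fell and 6 did not pass (limma, adjusted p under 0.05 over all genes), and their median log2 difference, CD24+CD29+ minus CD24-CD29-, was -0.23. Of the 29 autophagy genes, 15 rose and 7 fell, 7 missed the threshold, and the median was 0.16. All 29 had a mean log2 value of at least 6. Of all genes at that level, fitted alone, 49.7% were higher and 29.3% lower, close to the split of the autophagy genes. A large part of the transcriptome differed: 70.8% of all 18193 genes passed, 34.4% higher and 36.5% lower, with a median of -0.04, and the members' total of 38 of 51 was close to this background. The pair of groups did not overlap for 40 of the 51 members, against 73.6% of all genes. Differences of at least 2-fold were found for Atp6v0a2, Atg2a and Atg2b, all higher, against 4.67% of all genes. Of the 51 differences, 39 were smaller than 0.5 on the log2 scale.

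**Figure D1:**
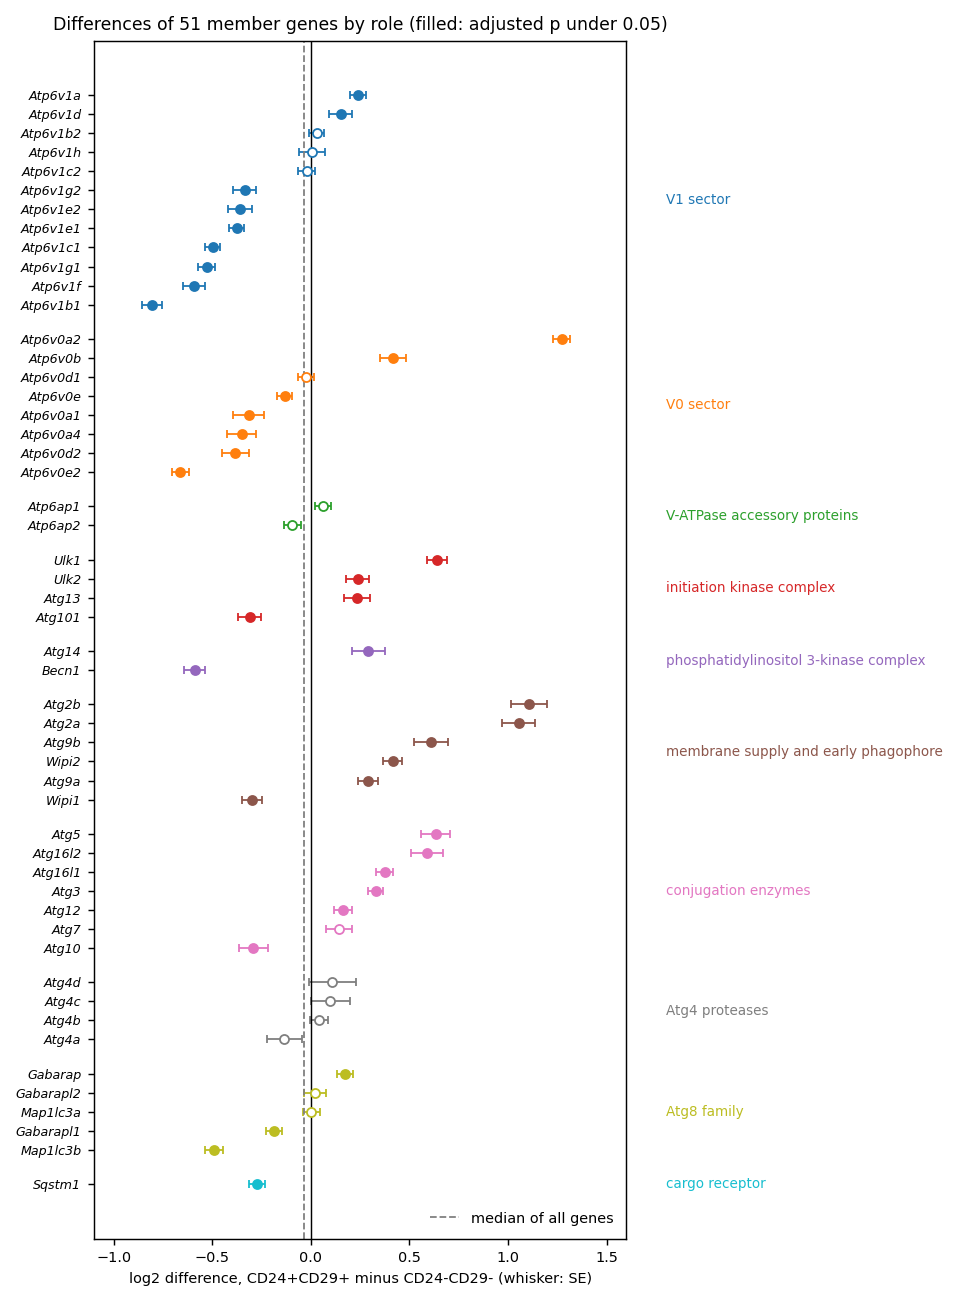
The log2 difference of each of the 51 genes (CD24+CD29+ minus CD24-CD29-, x axis) is drawn with its standard error, grouped by role, with filled points for adjusted p under 0.05 and a dashed line at the median of all genes. V1 genes lie mostly left of 0, down to -0.81 for Atp6v1b1, while Atp6v0a2 at 1.27, Atg2b at 1.11 and Atg2a at 1.05 lie farthest right.

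Cells rich in this pump, such as macrophages and osteoclasts, could add V-ATPase RNA to a sample. Of 13 markers of these cells, 1 rose and 7 fell in CD24+CD29+ cells, and their mean log2 value was 6.41 to 6.51 on CD24+CD29+ arrays and 6.66 to 6.71 on CD24-CD29- arrays. Among the falls, Lyz2, Tyrobp, Dcstamp, Fcer1g and Adgre1 had means of 5.52 to 6.71, and Csf1r and Cd14 had 7.19 and 12.64. Of all genes, 56.6% fell at a mean of 5 to 6 and 45.8% at 6 to 7, so that falls at these levels were common. Of the defining genes, 3 (Ptprc, Aif1 and Ocstamp) lay below the lower quartile of every array. Csf1r, the receptor of a macrophage growth factor, averaged 6.75 ± 0.14 in CD24+CD29+ cells and 7.63 ± 0.06 in CD24-CD29- cells (SD, n = 3 each), while Acp5, an osteoclast phosphatase gene, was 1.43-fold higher in CD24+CD29+ cells. All 8 fibroblast markers were higher in CD24+CD29+ cells, with a mean of 8.66 to 8.74 on CD24+CD29+ arrays and 7.85 on CD24-CD29- arrays. The part of other cell types in the members' differences was not tested. Fewer cells of a type and less RNA per cell cannot be told apart in these arrays.

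In the V1 sector 2 genes rose, 7 fell and 3 did not pass. The largest fall of any member was that of Atp6v1b1, the form of the nucleotide-binding B subunit that is best known from acid-secreting kidney cells. Its values were 8.46, 8.39 and 8.53 on CD24+CD29+ arrays, against 9.29, 9.29 and 9.22 on CD24-CD29- arrays. The groups were far apart, and the gene was 1.75-fold lower (log2 -0.81, SE 0.05, limma adjusted p = 6.2e-06). Atp6v1b2, the form of the same subunit made in most cells, averaged 11.23 ± 0.02 in CD24+CD29+ cells and 11.20 ± 0.02 in CD24-CD29- cells (SD, n = 3 each) and did not pass (limma adjusted p = 0.52). Its dim probe sets went both ways, at 0.21 and -0.43.

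Several genes of the stalks that link the sectors are described next. Atp6v1f, the F subunit of the central rotor stalk, was at 9.81, 9.64 and 9.68 in CD24+CD29+ cells, against 10.25, 10.33 and 10.33 in CD24-CD29- cells, and was 1.51-fold lower (limma adjusted p = 4.8e-05). For Atp6v1g1, the common G subunit of the outer stalks, the values were 12.79, 12.71 and 12.71 in CD24+CD29+ cells, against 13.27, 13.29 and 13.24 in CD24-CD29- cells, a 1.44-fold fall (limma adjusted p = 2.6e-05). Both genes had narrow groups with a clear gap between them. Atp6v1e1, which pairs with G in those stalks, fell by 0.38 on the log2 scale (SE 0.04), and 3 of its 4 probe sets passed as lower.

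Atp6v1c1, the C subunit that joins the outer stalks to the membrane and leaves when the pump is taken apart, read 10.32, 10.32 and 10.29 on CD24+CD29+ arrays, against 10.81, 10.83 and 10.79 on CD24-CD29- arrays. That is a 1.41-fold fall (limma adjusted p = 1.9e-05), but its other probe sets, at -0.11 and -0.03, did not pass. Atp6v1c2, the other C isoform, differed by -0.02 and did not pass. Minor isoforms, Atp6v1e2 (known from testis) and Atp6v1g2 (known from neurons), fell, at -0.36 and -0.33, with means of 5.25 and 5.49 near the lower quartile of the arrays. Among the 4416 genes measured at a mean of 5 to 6, 2499 fell, so that falls at this level were common.

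The catalytic A subunit gene Atp6v1a went the other way. It averaged 11.75 ± 0.03 in CD24+CD29+ cells and 11.51 ± 0.02 in CD24-CD29- cells (SD, n = 3 each), 1.18-fold higher (limma adjusted p = 0.0012). Its other probe set, at a mean of 11.01, gave 0.13 and did not pass in the fit over probe sets (limma adjusted p = 0.056). Atp6v1d, the rotor axle, rose by 0.15 with a limma adjusted p of 0.047, and its 3 probe sets differed in sign, at 0.15, 0.35 and -0.17. Without 1 array, for 5 of the 6 arrays in turn, Atp6v1d no longer passed, with a limma adjusted p of up to 0.14. Atp6v1h, the regulatory subunit that silences free V1, did not pass: its values were 9.72, 9.53 and 9.57 in CD24+CD29+ cells and 9.53, 9.69 and 9.58 in CD24-CD29- cells, and none of its 3 probe sets passed.

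The V0 sector held the largest rise of any member beside several falls: of 8 genes, 2 rose, 5 fell and 1 did not pass. Atp6v0a2 encodes the a2 form of the large membrane subunit, which directs the pump to the Golgi and to endosomes. It stood at 10.15, 10.14 and 10.16 on CD24+CD29+ arrays, against 8.82, 8.89 and 8.92 on CD24-CD29- arrays. The gap between the groups was far wider than the spread within either, and the gene was 2.42-fold higher (log2 1.27, SE 0.04, limma adjusted p = 5.4e-07). A second probe set gave 1.20, and the dimmest gave 0.14 and did not pass.

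The other a subunits, which send the pump to other membranes, are set beside it. Atp6v0a1, the a1 form prominent in neurons, averaged 7.24 ± 0.11 in CD24+CD29+ cells and 7.56 ± 0.12 in CD24-CD29- cells (SD, n = 3 each), and its 4 probe sets all fell, with differences between -0.66 and -0.32. Tcirg1, the a3 form of lysosomes and osteoclasts, carries a symbol outside the member rule. It read 10.43, 10.37 and 10.47 on CD24+CD29+ arrays, against 9.88, 9.98 and 9.94 on CD24-CD29- arrays, 1.40-fold higher (limma adjusted p = 6.5e-05). Atp6v0a4, the a4 form of kidney, fell by 0.35 at a mean of 5.28, a level at which most genes that changed fell. Thus a2 and a3 were higher and a1 and a4 lower on these arrays, and whether these differences themselves differ was not tested.

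Atp6v0e2, one of the pair of genes for the small e subunit, was at 8.38, 8.33 and 8.40 in CD24+CD29+ cells, against 9.05, 9.05 and 8.99 in CD24-CD29- cells. It was 1.58-fold lower (limma adjusted p = 8.3e-06), with no overlap. Atp6v0e, the other, fell by 0.13 (SE 0.04). Atp6v0d1, the common d subunit that couples the rotor to the proteolipid ring, did not differ beyond its spread, at 10.81, 10.78 and 10.82 in CD24+CD29+ cells and 10.85, 10.84 and 10.79 in CD24-CD29- cells. Atp6v0d2, its osteoclast form, fell by 0.38 at a mean of 5.79. Atp6v0b, a proteolipid subunit of the ring, rose by 0.42 on the probe set that represents it, but its brightest probe set gave 0.05 and did not pass and another gave -0.38.

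The accessory proteins Atp6ap1 and Atp6ap2, which help to assemble the pump, did not pass. Atp6ap2, also known as the prorenin receptor, stood at 11.75, 11.66 and 11.73 on CD24+CD29+ arrays and 11.79, 11.82 and 11.81 on CD24-CD29- arrays (limma adjusted p = 0.088). The groups did not overlap, and both of its brighter probe sets, which end in _x_at and can cross-hybridise, fell, at -0.29 and -0.46. Of 12 measured partners of the pump outside the rule, 3 rose, 5 fell and 4 did not pass. The rises besides Tcirg1 were Oxr1, which has a domain that helps to take the pump apart, at 1.66-fold, and Meak7 at 1.21-fold. Dmxl2, a subunit of the complex that reassembles the pump, fell by 0.53.

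**Figure D2:**
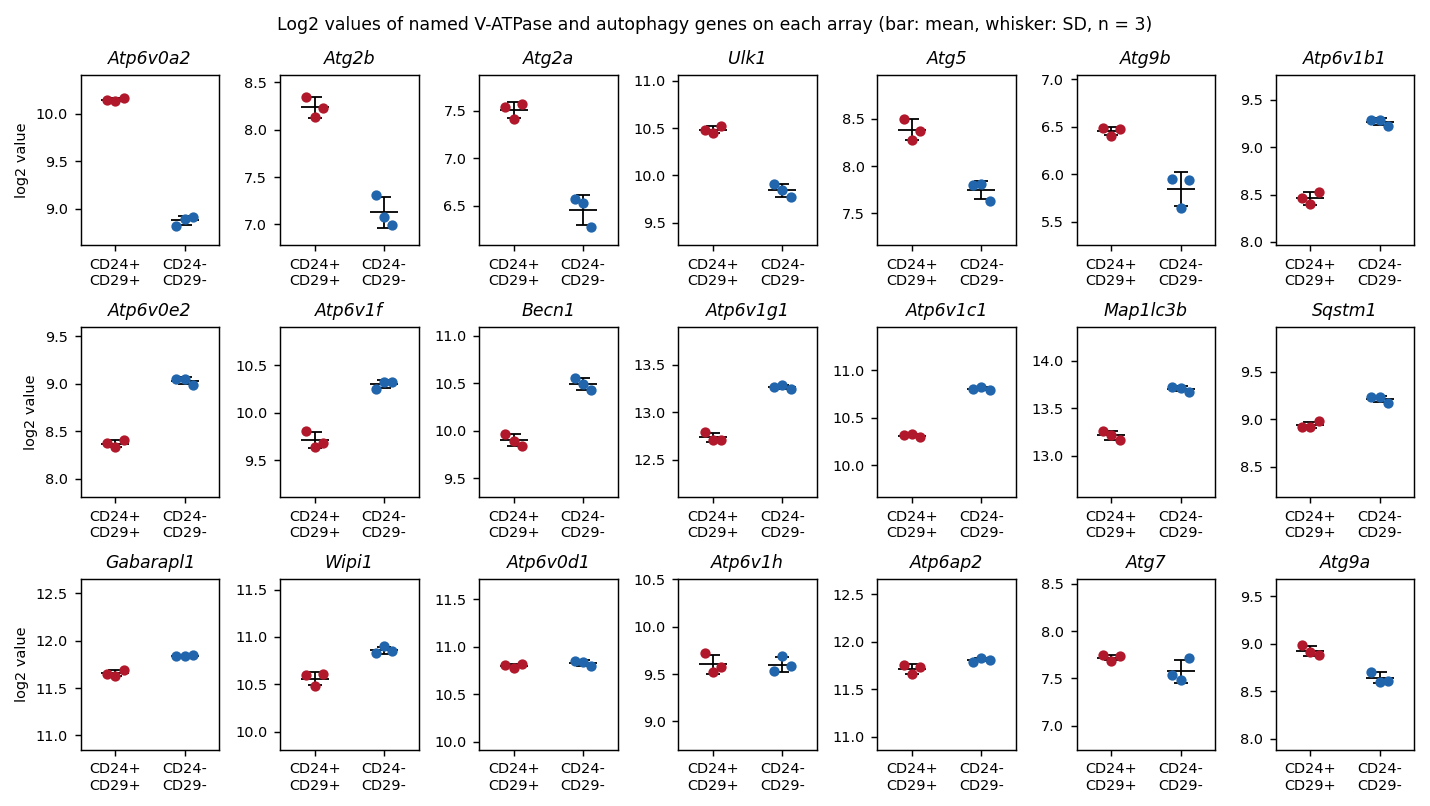
Log2 values of 21 member genes on each array (y axis, each panel 1.8 units high) are drawn for CD24+CD29+ (left) and CD24-CD29- (right), with the mean and SD of 3 arrays. The panels from Atp6v0a2 to Atg9b show CD24+CD29+ arrays above, those from Atp6v1b1 to Wipi1 show them below, and Atp6v0d1, Atp6v1h and Atg7 show overlapping groups.

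Many genes of the pump and of lysosomes carry the CLEAR element, an E-box bound by TFEB, which drives lysosome and autophagy genes. RefSeq promoters of 300 bases (250 before to 50 after the start, GRCm38.p6) were matched by symbol for 41 of the 51 members. The core TCACGTGA, which reads the same on both strands and contains the plain E-box CACGTG, was found for 4 of 41 members (9.76%) and for 1.125% of 27025 genes in the table. The plain E-box was found for 8 members (19.5%) and for 8.09% of all genes. A FoxO-type site, TGTTTAC or its complement GTAAACA, was found for 1 member, Atp6v1b1 (2.44%), and for 4.05% of all genes. Stretches of 120 bases around the motif are shown for these 5 genes, 5' to 3' on the gene's strand, since they set members with a shared element beside their differences. Capitals mark TCACGTGA in the first 4 and TGTTTAC in the last.
Atg3, chr16:45158701-45158820, plus strand: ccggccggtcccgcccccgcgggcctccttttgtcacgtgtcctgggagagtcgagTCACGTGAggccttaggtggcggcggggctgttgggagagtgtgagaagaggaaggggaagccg
Atp6v0d1, chr8:105566015-105566134, minus strand: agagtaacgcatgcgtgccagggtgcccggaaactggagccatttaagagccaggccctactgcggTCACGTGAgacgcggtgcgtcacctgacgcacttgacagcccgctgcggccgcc
Atp6v0e, chr17:26676326-26676445, plus strand: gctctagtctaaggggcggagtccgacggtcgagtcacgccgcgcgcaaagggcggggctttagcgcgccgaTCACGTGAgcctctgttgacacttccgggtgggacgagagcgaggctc
Atp6v1a, chr16:44139328-44139447, minus strand: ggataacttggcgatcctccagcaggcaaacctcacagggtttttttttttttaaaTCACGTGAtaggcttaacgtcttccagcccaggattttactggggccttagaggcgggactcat
Atp6v1b1, chr6:83742862-83742981, plus strand: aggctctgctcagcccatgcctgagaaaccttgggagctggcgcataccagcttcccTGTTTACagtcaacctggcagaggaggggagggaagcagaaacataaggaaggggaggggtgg

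The 4 members with the CLEAR core did not share a direction: Atg3 and Atp6v1a rose by 0.33 and 0.24, Atp6v0e fell by 0.13, and Atp6v0d1 differed by -0.03 and did not pass. Scaling moved both of these calls: Atp6v0e was lost after median centring (-0.08, limma adjusted p = 0.11), and Atp6v0d1 passed as lower after quantile normalization (-0.13, limma adjusted p = 0.015) and cyclic loess (-0.14, limma adjusted p = 0.0092). Tfeb itself had values of 7.99, 7.79 and 7.81 in CD24+CD29+ cells and 7.96, 8.10 and 7.96 in CD24-CD29- cells, which overlapped (limma adjusted p = 0.093). It passed as lower without CD24+CD29+ replicate 1, at -0.20 (limma adjusted p = 0.024), and after quantile normalization and cyclic loess, at -0.33 under each. Its relative Tfe3 was 1.25-fold higher and Mitf, another factor of the family, 1.19-fold lower in CD24+CD29+ cells. A match of letters is a description and not a bound site.

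All 4 genes of the initiation kinase complex passed on the probe sets that represent them, 3 higher and 1 lower, against 70.8% of all genes. Of their 10 probe sets, 4 rose, 4 fell and 2 did not pass. Ulk1, the kinase that starts autophagy, was at 10.48, 10.45 and 10.52 on CD24+CD29+ arrays, against 9.91, 9.85 and 9.77 on CD24-CD29- arrays. It was 1.56-fold higher (log2 0.64, SE 0.05, limma adjusted p = 1.9e-05), on a bright probe set, whereas its dim one gave 0.10 and did not pass. Atg13, the adaptor of the kinase, rose by 0.23, and Ulk2, the second kinase, by 0.24, but both had probe sets past the threshold in the other direction. Quantile normalization ended the calls of both Atg13 and Ulk2. Atg101, which binds and steadies Atg13, fell by 0.31 (SE 0.06) on its only probe set. Rb1cc1, the scaffold of the complex, is outside the rule and did not pass, at 1.04-fold.

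In the phosphatidylinositol 3-kinase complex the pair of members differed in direction on the probe sets that represent them, but neither direction held throughout. Becn1, the core subunit that many regulators bind, had values of 9.97, 9.89 and 9.84 in CD24+CD29+ cells, against 10.55, 10.49 and 10.43 in CD24-CD29- cells, 1.51-fold lower (limma adjusted p = 3.8e-05). Its 5 probe sets did not agree: those at -0.59 and -0.70 passed as lower, the second brightest passed as higher at 0.20, and the others gave 0.12 and -0.12. Atg14, which takes the complex to autophagosome sites, rose by 0.29 (SE 0.08), with a limma adjusted p of 0.054 without CD24+CD29+ replicate 3. The Atg14 call was also lost after quantile normalization, at 0.095 (limma adjusted p = 0.28), and after cyclic loess, at 0.080 (limma adjusted p = 0.36). Among partners outside the rule, the lipid kinase Pik3c3 was 1.20-fold, its subunit Nrbf2 1.54-fold and the activator Ambra1 1.72-fold higher. Pik3r4, a core subunit of the same complex, did not pass (1.10-fold, limma adjusted p = 0.089), nor did Rubcn, an inhibitor of it (1.06-fold), and the kinase gene Dapk1 was 1.33-fold lower.

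Genes of membrane supply held the largest rises of the autophagy genes. Of 6, 5 were higher and Wipi1 was lower. Atg2b, 1 of the pair of lipid transfer proteins that feed the growing membrane, read 8.35, 8.13 and 8.23 on CD24+CD29+ arrays, against 7.31, 7.07 and 6.99 on CD24-CD29- arrays. It was 2.15-fold higher (log2 1.11, SE 0.09, limma adjusted p = 2.6e-05), and its dimmer probe sets gave 0.30 and -0.26. Atg2a, its partner, was at 7.54, 7.41 and 7.58 in CD24+CD29+ cells, against 6.57, 6.53 and 6.27 in CD24-CD29- cells, 2.08-fold higher (log2 1.05, SE 0.09). On the probe sets that represent them, both genes thus differed by about 1 log2 unit, several times the spread within either group. For Atg2b this did not hold on its dimmer probe sets, of which that at -0.26 passed as lower. With its probe sets averaged, Atg2b was higher by 0.38.

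Atg9a, the lipid scramblase that travels in vesicles, was at 8.99, 8.92 and 8.88 in CD24+CD29+ cells, against 8.71, 8.60 and 8.61 in CD24-CD29- cells, 1.22-fold higher (limma adjusted p = 0.0013). This call was lost after quantile normalization, at 0.08. Atg9b, its relative with a narrower range of tissues, read 6.48, 6.41 and 6.48 on CD24+CD29+ arrays, against 5.95, 5.64 and 5.94 on CD24-CD29- arrays, and its other, dimmer probe set passed as lower at -0.24. Wipi2, the lipid reader that brings the conjugation enzymes, rose by 0.42 (SE 0.05). Wipi1, its relative, was lower on its brightest probe set, at 10.60, 10.48 and 10.61 in CD24+CD29+ cells, against 10.83, 10.90 and 10.85 in CD24-CD29- cells. Of its 6 probe sets 2 passed as higher and 2 as lower, so that no direction holds for the gene as a whole. Wdr45, another protein of the same family outside the rule, was 1.86-fold lower, while Wdr45b did not pass (1.02-fold, limma adjusted p = 0.55).

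Among the 7 conjugation enzymes 5 rose, 1 fell and 1 did not pass. Atg5, which with Atg12 and Atg16l1 forms the complex that places Atg8 proteins on the membrane, was at 8.50, 8.27 and 8.37 on CD24+CD29+ arrays, against 7.80, 7.81 and 7.63 on CD24-CD29- arrays. All 3 of its probe sets rose, by 0.63, 0.47 and 0.74, and the gene was 1.55-fold higher (limma adjusted p = 0.00015). Its partner Atg16l1 rose by 0.37 and the related Atg16l2 by 0.59, each on 1 of its 2 probe sets. Atg12 rose by 0.16, but its probe set ending in _x_at fell by 0.55.

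Atg3, the enzyme that hands the Atg8 proteins to lipid, averaged 12.11 ± 0.01 in CD24+CD29+ cells and 11.78 ± 0.01 in CD24-CD29- cells (SD, n = 3 each), and both of its probe sets rose. Atg7, the activating enzyme of both conjugation chains, had values of 7.74, 7.69 and 7.73 in CD24+CD29+ cells and 7.54, 7.48 and 7.71 in CD24-CD29- cells. These overlapped and the gene did not pass (limma adjusted p = 0.081), but without CD24-CD29- replicate 3 it did, at 0.21 (limma adjusted p = 0.0075). Atg10, which joins Atg12 to Atg5, fell by 0.29 (SE 0.07). None of the 4 Atg4 proteases, which prime the Atg8 proteins and later cut them from lipid, passed, with differences of -0.14 to 0.11. Without CD24-CD29- replicate 3, Atg4a passed as lower, at -0.22 (limma adjusted p = 0.047). Dimmer probe sets of Atg4b and Atg4c rose by 0.47 and 0.55 and those of Atg4a and Atg4b fell by 0.37 each.

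In the Atg8 family itself 1 gene rose, 2 fell and 2 did not pass. Map1lc3b, which encodes LC3B, the usual marker of autophagosomes, read 13.26, 13.22 and 13.17 on CD24+CD29+ arrays, against 13.73, 13.72 and 13.68 on CD24-CD29- arrays. It was 1.41-fold lower (log2 -0.49, SE 0.04, limma adjusted p = 3.6e-05), and all 4 of its probe sets fell, with differences between -0.81 and -0.20. Gabarapl1 was at 11.65, 11.63 and 11.69 in CD24+CD29+ cells, against 11.84, 11.84 and 11.85 in CD24-CD29- cells, 1.14-fold lower (limma adjusted p = 0.0039), and its dimmer probe set gave 0.11 and did not pass. Gabarap rose by 0.17 (SE 0.04) and Gabarapl2 differed by 0.02. Map1lc3a, which encodes LC3A, did not pass on the probe set that represents it, at 0.00, while a much brighter one ending in _x_at fell by 0.34.

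Sqstm1 encodes p62, a receptor that ties ubiquitin-marked cargo to LC3. It was at 8.91, 8.92 and 8.98 on CD24+CD29+ arrays, against 9.23, 9.23 and 9.17 on CD24-CD29- arrays, 1.21-fold lower (limma adjusted p = 0.00074). Of 13 measured receptors of selective autophagy outside the rule, 5 rose, 5 fell and 3 did not pass. Nbr1 and Tax1bp1, which bind both ubiquitin and LC3 as p62 does, were 1.40-fold and 1.54-fold lower, and Calcoco1 was 1.63-fold lower. Tollip, which also binds ubiquitin, was 1.12-fold higher, and the mitochondrial receptors Fundc1 and Bnip3, which bind LC3, were 1.20-fold and 1.49-fold higher. These genes were picked after their values were seen. RNA levels do not show the flow of cargo through autophagy, since p62 and lipid-bound LC3 are themselves degraded by it.

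Of 26 other autophagy genes outside the rule, 10 rose, 6 fell and 10 did not pass. Besides Ambra1 and Nrbf2, the kinase gene Tbk1 rose by 1.64-fold and Tmem41b, a lipid scramblase, by 1.55-fold. Among the falls, Trp53inp1, a p53 target that binds LC3, was 2.42-fold lower, Wdr45 1.86-fold and Vamp8, which fuses autophagosomes with lysosomes, 1.72-fold, and the other 3 were 1.11-fold to 1.33-fold lower. Other genes of this fusion step were split: Ykt6 and Stx17 were 1.40-fold and 1.18-fold higher, and Snap29 was 1.33-fold lower. Of 21 regulators, 6 rose, 7 fell and 8 did not pass. Mtor itself was 1.75-fold higher, its partner Rptor 1.51-fold and the lysosomal calcium channel gene Mcoln1 1.51-fold. Sesn3 and Stk11, which act upstream to restrain mTORC1, were 1.78-fold and 1.65-fold higher. However, Sesn1 and Sesn2, of the same family as Sesn3, were 1.38-fold and 1.19-fold lower. Prkaa1, Prkaa2, Ddit4 and Deptor of the same list did not pass. Foxo3, a factor that drives autophagy genes in muscle, was 1.70-fold lower, and Fnip1 and Flcn, partners in nutrient signalling to mTORC1, were 1.57-fold and 1.44-fold lower.

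Probe sets of 1 gene often disagreed. Of the 118 member probe sets, 32 rose, 46 fell and 40 did not pass, 66.1% past the threshold against 63.9% of all 45037 probe sets that are not controls (29.2% higher and 34.8% lower over all). Of the 47 V-ATPase probe sets 6 rose and 24 fell, and of the 71 autophagy probe sets 26 rose and 22 fell. Of the 35 member genes with more than 1 probe set, 11 had probe sets past the threshold in both directions: Atp6v0b, Atp6v1b2, Atp6v1d, Atg2b, Atg4b, Atg9b, Atg12, Atg13, Becn1, Ulk2 and Wipi1. For 5 genes, Atg3, Atg5, Map1lc3b, Atp6v0a1 and Atp6v0d2, every probe set passed in 1 direction.

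**Figure D3:**
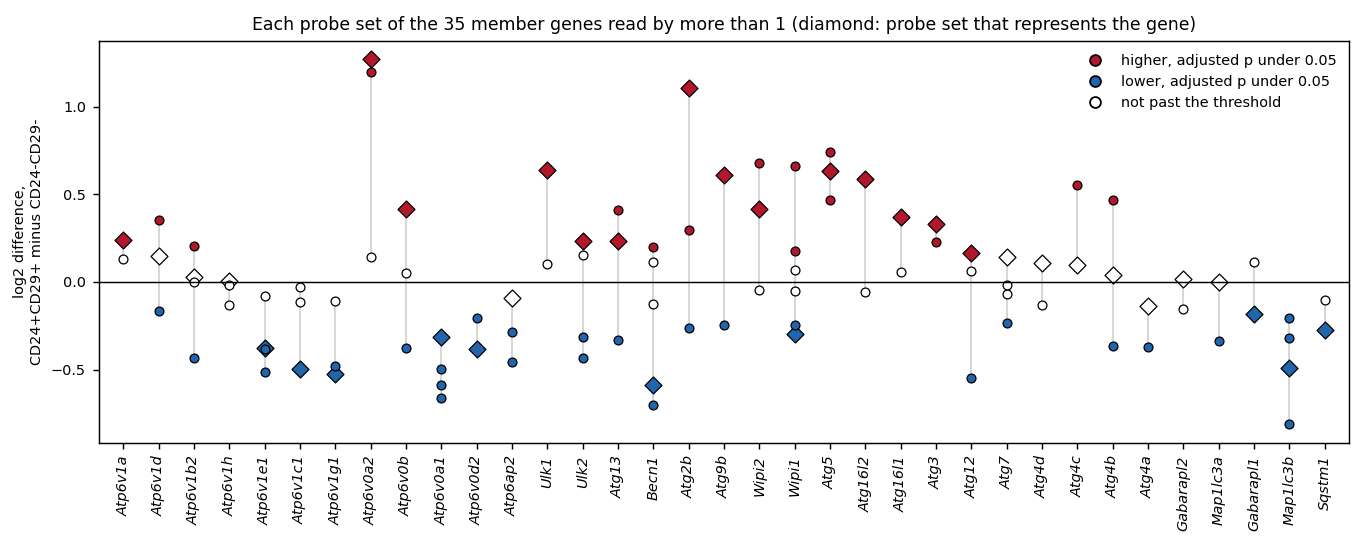
The log2 difference of every probe set (y axis, CD24+CD29+ minus CD24-CD29-) is drawn for the 35 genes read by more than 1, with red for higher, blue for lower and white for not past the threshold in the fit over all probe sets, and diamonds for the probe set that represents the gene. Atg5 and Atg3 lie wholly above 0 and Map1lc3b and Atp6v0a1 wholly below, whereas Becn1, Wipi1 and Ulk2 spread across it. The probe set that represents Atp6v1d is white here and passed only in the fit over genes, while its other probe sets are red and blue.

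The level of a gene bore on the background. Genes with a mean of 8 to 9 had a median difference of 0.25 over all genes, and those with a mean of 5 to 6 had -0.22. All 29 autophagy genes had a mean of at least 6. Of all 11895 genes at that level, fitted alone, 49.7% were higher and 29.3% lower. The 15 higher and 7 lower of 29 autophagy genes were therefore close to other genes of their level. Of the 18 V-ATPase genes at that level, 4 were higher and 8 lower, with a median of -0.06, against a median of 0.13 for all genes there.

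**Figure D4:**
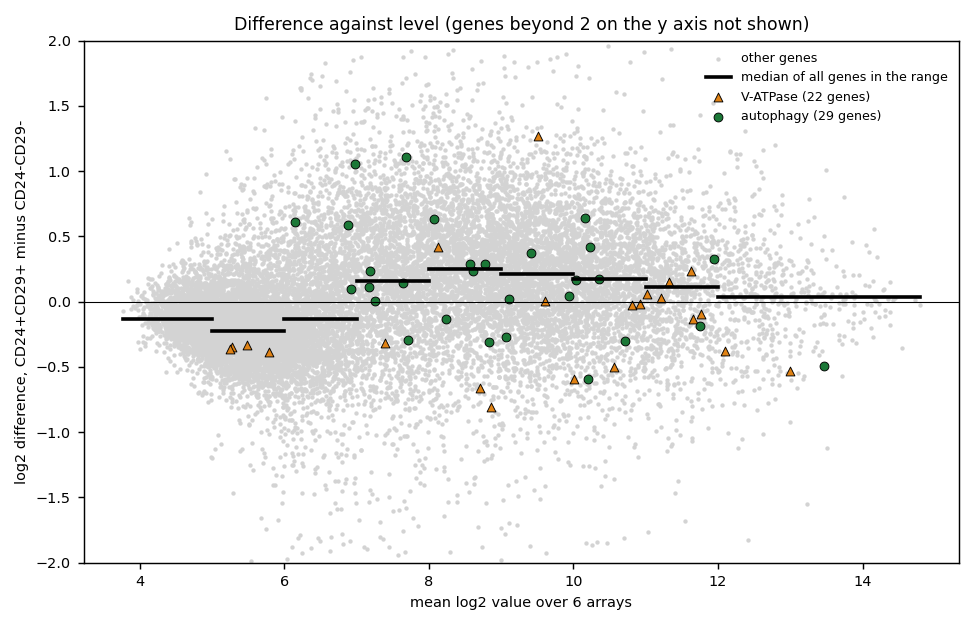
The log2 difference (y axis, CD24+CD29+ minus CD24-CD29-) is plotted against the mean log2 value over 6 arrays (x axis) for all genes in grey, V-ATPase genes as triangles and autophagy genes as circles, with black bars at the median of all genes in each range of level. The bars lie below 0 under a mean of 7 and above 0 beyond it, and 4 V-ATPase genes lie in the range of 5 to 6.

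The way the arrays were scaled changed the picture for autophagy. After quantile normalization or cyclic loess, 9 autophagy genes were higher and 11 lower, against 15 and 7 as deposited. For the V-ATPase 3 were higher and 16 lower, against 4 and 12. Of all genes, 30.6% were higher and 34.1% lower after quantile normalization, and 30.7% and 34.1% after cyclic loess. Atp6v0a2, Atg2a, Atg2b, Ulk1 and Atg5 stayed higher and Atp6v1b1, Atp6v0e2, Atp6v1f, Becn1 and Map1lc3b stayed lower under both. The added poly-A control RNAs were lower on CD24+CD29+ arrays than on CD24-CD29- arrays, with a median difference of -1.14 over 27 probe sets. Scaling to them added 1.09 to every difference and brought the all-gene median to 1.05, against -0.04 as deposited. It turned all 51 members higher, as it did 98.1% of all genes, so that directions here are relative to the other genes. Relative to the median of all genes, that of the V-ATPase was -0.19 and that of autophagy 0.20 as deposited, and a constant shift cannot change either. The autophagy value was smaller under other settings, at 0.039 after quantile normalization, 0.049 after cyclic loess, 0.037 among genes with a mean of at least 6 and 0.0014 without the dimmest 40% of genes. The V-ATPase value was -0.15, -0.17, -0.19 and -0.21 under the same settings.

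**Figure D5:**
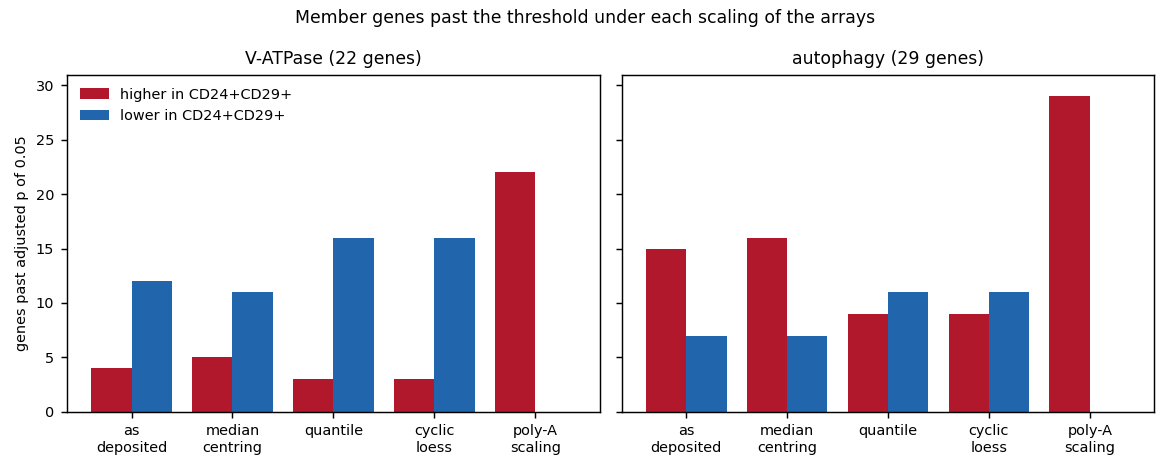
Bars give the number of member genes past an adjusted p of 0.05 (y axis, from 0), higher (red) or lower (blue) in CD24+CD29+ cells, under 5 scalings of the arrays. V-ATPase genes that passed were mostly lower under 4 of them, with 5 higher and 11 lower of 22 after median centring. Autophagy genes were mostly higher as deposited and after median centring (16 and 7) but not after quantile normalization or cyclic loess (9 and 11). After median centring 38.1% of all genes were higher and 30.4% lower. Scaling to the poly-A controls turned all members higher, as it did 98.1% of all genes.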

How the data were processed

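Total RNA of 3 CD24+CD29+ and 3 CD24-CD29- samples was hybridised to 6 arrays. Per the submitters' processing notes, the deposited log2 values came from RMA (background correction, normalization across arrays, summary over probes) and Partek. Not given in the sources used here are their versions and settings and any genome build. No detection calls came with the values.

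Of the 45101 probe sets, 64 were controls and 34945 had exactly 1 symbol in the platform annotation, which can be old. All 51 member genes were found by symbol in a RefSeq table of GRCm38.p6. For each gene the brightest single-symbol probe set by its 6-array mean was used, passing over those ending in _x_at where there was a choice. The tests were run in R 4.3.3 with limma 3.58.1 (lmFit and eBayes without a block) over 18193 genes and, separately, over 45037 probe sets, with Benjamini-Hochberg adjustment and a threshold of 0.05. The fit was tested on simulated data in which few genes were changed. In these data 70.8% of all genes passed, so the simulation does not cover this setting.

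Every member was placed in a role group and counted. Array values are given for the 6 largest rises and falls past the threshold, for the leader of each role group and for 14 genes chosen for their role. Members and lists were chosen with earlier results of these data known. Alternatives were other scalings, filters on dim genes, other ways to represent a gene, a variance trend, a replicate block and leaving out each array. The labels do not say that a replicate number pairs the samples, so the main fit had no block. Same-numbered arrays deviated from their group means with correlations of 0.22, -0.05 and 0.04, which cannot settle whether the samples were paired.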

Additional observations from a re-analysis of the deposited data

How the results depend on the processing

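Counts of member genes past the threshold stayed within 1.5 times of the reported 38 under every alternative, but the split by direction did not. Quantile normalization and cyclic loess gave 12 higher genes each, against 19 as deposited. Of all genes, 30.6% and 30.7% were higher under them, against 34.4% as deposited. Scaling to the poly-A controls gave 51 higher and 0 lower genes and 118 higher and 0 lower probe sets, 118 in all. Under it 98.1% of all genes were higher. Leaving out probe sets ending in _x_at, _s_at or _a_at left 28 lower probe sets of the 46. At least 2-fold differences numbered 1 after quantile normalization, 1 with probe sets averaged by gene and 30 under poly-A scaling, against 3. The V-ATPase median was -0.18 after quantile normalization, -0.20 after cyclic loess, -0.17 after median centring, 0.86 under poly-A scaling, -0.060 under either filter on dim genes, -0.25 with the mean of probe sets and -0.30 with the brightest probe set. The autophagy median was 0.0075, 0.020, 0.22 and 1.25 under those scalings in turn and 0.052 with the mean of probe sets. The filters left fewer V-ATPase genes, 18 of 22; the cause of the other changes was not tested.

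Without 1 array in turn, the V-ATPase median ran from -0.23 to -0.20, the autophagy median from 0.14 to 0.19, member genes past the threshold from 36 to 39 and member probe sets from 69 to 76. With the replicate number as a replicate block, 38 member genes passed, 19 higher and 19 lower, and no call on a member gene changed.

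Scaling to the poly-A controls turned these genes positive: Atg10 0.80, Atg101 0.78, Atg4a 0.95, Atp6ap2 0.99, Atp6v0a1 0.77, Atp6v0a4 0.74, Atp6v0d1 1.06, Atp6v0d2 0.71, Atp6v0e 0.96, Atp6v0e2 0.43, Atp6v1b1 0.28, Atp6v1c1 0.59, Atp6v1c2 1.07, Atp6v1e1 0.71, Atp6v1e2 0.73, Atp6v1f 0.50, Atp6v1g1 0.56, Atp6v1g2 0.75, Becn1 0.50, Gabarapl1 0.90, Map1lc3b 0.60, Sqstm1 0.81, Tfeb 0.95 and Wipi1 0.79. After quantile normalization and cyclic loess Atg4b was at -0.12 and -0.13, Atp6v1h at -0.17 and -0.18, Gabarapl2 at -0.17 and -0.18 and Map1lc3a at -0.14 and -0.12, all past the threshold. With probe sets averaged, Atg12 was at -0.11, Ulk2 at -0.090, Wipi1 at 0.052 and Map1lc3a at -0.17, and with the brightest probe set Map1lc3a was at -0.34. Quantile normalization also ended the calls of 7 genes, Atg9a, Atg12, Atg13, Atg14, Atp6v1d, Gabarap and Ulk2, and brought 5 others past the threshold as lower: Atg4a -0.33, Atp6ap2 -0.13, Atp6v0d1 -0.13, Atp6v1c2 -0.12 and Tfeb -0.33. Only 3 arrays a group and values without detection calls limit what can be told for members near the lower quartile.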
